A study of Mus musculus with 1024 samples.

Results

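Among the 24422 genes counted in single cells of the mouse aorta are 7 enzymes that handle alcohols, aldehydes and foreign compounds: the alcohol dehydrogenases Adh7 and Adh1, the aldehyde dehydrogenases Aldh3a1, Aldh1a1 and Aldh2, and the cytochromes P450 Cyp4b1 and Cyp1b1. They were chosen by name because measured values of these same cells put several of them among the leading genes of different groups of endothelial cells (ECs), so their levels over those groups and their relations over ECs are a description with no test. Alcohol dehydrogenases oxidize alcohols, including retinol, to aldehydes. Aldehyde dehydrogenases oxidize the aldehydes to acids, and cytochromes P450 add oxygen to lipids, steroids and foreign compounds. Together such enzymes clear ethanol, products of lipid peroxidation and drugs, and in several tissues they set the level of retinoic acid.

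Cells of the aortic wall were sorted into wells after removal of Cd45+ cells, as Cd31+Cd45- wells (label Endothelial) or Cd31-Cd45- wells (label DoubleNegative), and read with Smart-seq2. All wells carry the same strain label (Amotl2flow/flow / Cdh5-RREert /ROSA26-EYFP), which the methods give as a loxP-flanked amotl2 gene with Cdh5(PAC)CreERT2 and the ROSA26-EYFP reporter, an age of 3 months and the genotype WT (amotl2 ec+/ec+) or KO (amotl2 ec-/ec-). Tamoxifen given to adults switches on a Cre recombinase under the promoter of Cdh5, the gene of VE-cadherin, so the deletion is aimed at ECs and not at Cd31- cells. The methods give a C57BL/6 background and both sexes for the mice of the study as a whole, not for these sorts. The shared strain label does not say whether WT mice carried Cre or received tamoxifen. The labels give each genotype 2 sorts, called preparations here, and name no single mouse, so that the preparations are the replicates. The study reports more mice per genotype than sorts, so a preparation may pool several mice. The spread between preparations is then not one between single mice. In preparation 1 WT and KO filled different plates, so an effect of the plate and one of the genotype cannot be told apart, and in preparation 2 they shared a plate.

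Of 1024 wells, 784 held at least 20000 counts on genes and 500 genes, 676 of them Cd31+ (235 and 50 in WT preparations 1 and 2, 302 and 89 in KO preparations 1 and 2) and 108 Cd31- (42, 12, 40 and 14). The counts summed over the Cd31+ wells of a sample ranged from 8470943 to 94881185 and those over the Cd31- wells from 926398 to 9435015. Summed Cd31+ wells held the 8 endothelial markers at 11313 to 12765 CPM (counts of a gene scaled to the same total in each sample), the 6 smooth muscle markers at 710 to 1592 CPM and the 6 fibroblast markers at 108 to 339 CPM. Summed Cd31- wells held 24.8 to 1215, 20669 to 52705 and 2833 to 28283 CPM of these lists. Counts of the 6 leukocyte markers were at most 3.26 CPM. Amotl2 itself was at 59.9 and 94.0 CPM in the Cd31+ wells of WT preparations 1 and 2 and at 51.9 and 45.7 CPM in those of the KO, in counts that do not separate the deleted exon from the rest of the gene. Counts of the EYFP reporter were at 113 and 85.5 CPM in the Cd31+ wells of the KO and at 2.38 and 0.353 CPM in those of the WT. WT preparation 1 stood apart in that 154 of its 235 Cd31+ wells fell into a cluster led by Cd74, H2-Eb1 and other MHC class II genes, which held no well of WT preparation 2.

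Adh7 and Adh1 are neighbours on chromosome 3. Adh7 encodes a class IV alcohol dehydrogenase with high activity towards retinol, and in GRCm38 (GENCODE M21) it spans chr3:138217760-138233382 on the plus strand. Adh1 encodes the class I enzyme best known for ethanol in the liver and lies 27608 bases further on, at chr3:138260991-138290698 on the same strand. The sequences of the 250 bases before the RefSeq start of both genes (GRCm38.p6) and of Cyp1b1 are shown because the neighbours Adh7 and Adh1 were the most alike pair of enzymes over ECs and because Cyp1b1 is a textbook target of the aryl hydrocarbon receptor Ahr. They stand at chr3:138217523-138217772 (plus strand) for Adh7, at chr3:138277335-138277584 (plus strand) for Adh1 and at chr17:79715062-79715311 (minus strand) for Cyp1b1. The RefSeq start of Adh1 lies inside the GENCODE span given above. The sequences are written 5′ to 3′, with any match to the 4 searched motifs in capitals.
Adh7: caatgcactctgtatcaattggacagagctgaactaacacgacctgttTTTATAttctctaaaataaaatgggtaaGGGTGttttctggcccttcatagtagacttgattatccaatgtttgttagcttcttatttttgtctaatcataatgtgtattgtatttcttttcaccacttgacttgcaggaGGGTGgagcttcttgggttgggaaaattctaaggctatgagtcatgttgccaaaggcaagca
Adh1: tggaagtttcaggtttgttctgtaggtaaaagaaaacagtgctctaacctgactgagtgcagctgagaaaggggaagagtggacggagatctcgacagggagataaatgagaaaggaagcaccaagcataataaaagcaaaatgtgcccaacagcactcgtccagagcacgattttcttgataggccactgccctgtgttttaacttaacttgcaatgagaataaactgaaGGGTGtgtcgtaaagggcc
Cyp1b1: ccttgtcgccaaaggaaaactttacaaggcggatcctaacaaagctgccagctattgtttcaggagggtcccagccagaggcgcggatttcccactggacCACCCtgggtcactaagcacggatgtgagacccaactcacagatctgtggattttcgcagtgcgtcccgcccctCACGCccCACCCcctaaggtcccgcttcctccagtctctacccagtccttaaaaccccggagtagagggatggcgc

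The motifs, searched on both strands, were GCGTG (the core bound by Ahr with Arnt), TGACNNNGC (the antioxidant response core), TATAAA and CACCC (a core of Klf factors); none of the matches overlapped. Of 32851 RefSeq promoters of this length, 28.2%, 10.2%, 12.4% and 52.0% held them. The 250 bases of Cyp1b1 held 1 match to GCGTG, starting 76 bases before the start, and 2 to CACCC. Those of Adh7 held 1 match to TATAAA, 202 bases before the start, and 2 to CACCC, and those of Adh1 held 1 match to CACCC, 19 bases before the start. Of the 7 enzymes, 5 had a promoter in the table. Aldh3a1 and Aldh2 had no entry.

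The Cd31+ wells held both alcohol dehydrogenases at high levels in every sample. Adh7 was at 1338 and 1499 CPM in WT preparations 1 and 2 and at 1206 and 1134 CPM in KO preparations 1 and 2. It ranked 55 of 24422 genes by mean CPM, and 85.1% to 100% of the Cd31+ wells of a sample had a count of it. Adh1 was at 759 and 679 CPM in the WT and at 760 and 499 CPM in the KO, with counts in 83.8% to 98.0% of wells. All 4 samples lay close together for both genes, and KO preparation 2 was the lowest for each. The other genes of the alcohol dehydrogenase cluster were near 0, with 2 counts of Adh6a and 4 of Adh4 over all 676 Cd31+ wells, apart from Adh5, the widely expressed glutathione-dependent formaldehyde dehydrogenase at the far end of the cluster, which was at 140 to 220 CPM. Reads without strand cannot tell Adh7 from 0610031O16Rik, which overlaps it on the other strand and had 5 counts beside 194519 of Adh7.

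Of the aldehyde dehydrogenases, Aldh2, the mitochondrial enzyme that oxidizes acetaldehyde, was the most evenly spread. It was at 328 and 417 CPM in Cd31+ wells of WT preparations 1 and 2 and at 367 and 274 CPM in those of the KO, with a count in 89.7% to 100% of wells. Aldh3a1, which oxidizes medium-chain and aromatic aldehydes and is best known from cornea and stomach, was at 83.0 and 143 CPM in the WT and at 193 and 113 CPM in the KO. The share of wells with an Aldh3a1 count ran from 30.2% (95% exact binomial interval 24.4 to 36.5) in WT preparation 1 to 74.0% (59.7 to 85.4) in WT preparation 2, and from 26.8% to 60.0% once every well was thinned to 20000 counts, so the preparations of 1 genotype differed beyond counting error. Aldh1a1, a cytosolic retinaldehyde dehydrogenase, was rare: 36.7 and 60.8 CPM in the WT and 65.2 and 63.3 CPM in the KO, in 11.1% to 24.7% of wells. A gene on its other strand, C730002L08Rik, had 0 counts. The 10% of wells with the highest CPM carried 77.9% to 99.7% of the summed Aldh1a1 CPM of a sample, against 21.3% to 28.9% for Aldh2.

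The P450s differed in the same way. Cyp1b1, which hydroxylates oestrogens and fatty acids and activates polycyclic hydrocarbons, was at 257 and 622 CPM in Cd31+ wells of WT preparations 1 and 2 and at 430 and 470 CPM in those of the KO, with WT preparation 1 below the rest. Cyp4b1, a fatty acid and xenobiotic hydroxylase best known from lung, was at 209 and 187 CPM in the WT and at 210 and 307 CPM in the KO. Counts of Cyp1b1 were found in 68.1% to 94.0% of wells and of Cyp4b1 in 45.7% to 64.0%. The Cyp4a genes next to Cyp4b1 on chromosome 4 were near 0 in Cd31+ wells: 3122 bases away, Cyp4a32 had 17 counts, and Cyp4a31 had 0, which allows up to 3 counts, where Cyp4b1 had 33026.

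Levels of different genes were compared per kilobase of exon (CPM per kb, mean ± SD, n = 4 samples of Cd31+ wells). Adh7 stood at 342 ± 42.4 and Adh1 at 302 ± 55.0 CPM per kb, and their samples overlapped. Cyp4b1 followed at 101 ± 23.6, Cyp1b1 at 76.1 ± 25.7, Aldh3a1 at 68.6 ± 24.1 and Aldh2 at 67.6 ± 11.8, and each of these overlapped the next. All samples of Adh1 lay above those of Cyp4b1, and Aldh1a1, at 11.4 (7.43 to 13.2), lay below Aldh2 in all samples.

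**Figure D1:**
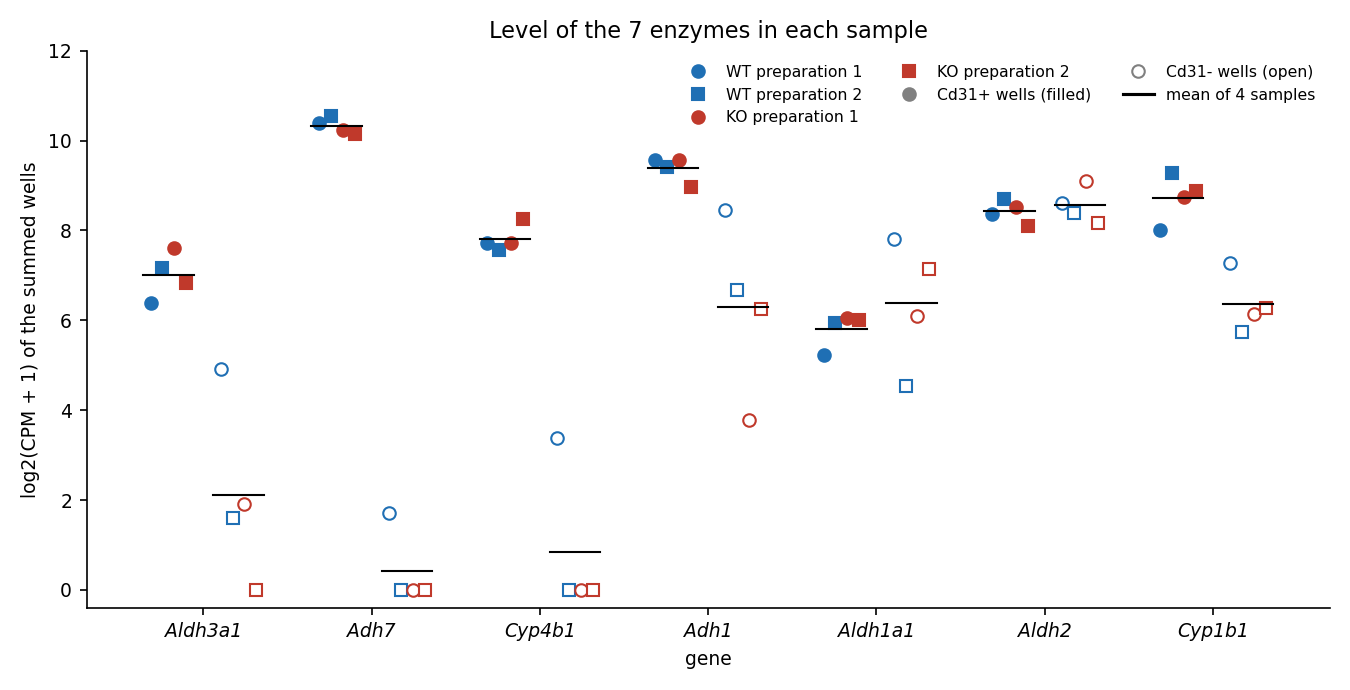
Level of each enzyme in the summed wells of each sample, as log2(CPM + 1) on the vertical axis, for Cd31+ wells (filled) and Cd31- wells (open) of WT (blue) and KO (red), preparation 1 as circles and preparation 2 as squares; bars are means of 4 samples. Adh7 and Cyp4b1 are at 0 in 3 of 4 Cd31- samples, while the samples of Aldh2 overlap between the gates.

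Do the enzymes separate ECs from the other cells of the aortic wall? Adh7, Cyp4b1, Aldh3a1, Adh1 and Cyp1b1 were higher in Cd31+ than in Cd31- wells, and Aldh1a1 and Aldh2 did not pass the test. In the Cd31- wells Adh7 had 0 counts in 3 of 4 samples and 15 counts (2.26 CPM, in 2 of 42 wells) in WT preparation 1. The Cd31+ level was at least 494-fold higher in WT preparation 2, at least 3794-fold in KO preparation 1 and at least 350-fold in KO preparation 2, taking 3 counts per library as the level of 0, and it was 592-fold higher (359 to 1057, counting interval) in WT preparation 1. Cyp4b1 had 62 counts in 1 of 42 Cd31- wells of WT preparation 1, where Cd31+ wells were 22.4-fold higher, and 0 in the other samples, where they were at least 61.7-, 661- and 94.7-fold higher. A count in 0 of the 12 Cd31- wells of WT preparation 2 allows up to 3 wells.

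Aldh3a1 was at 29.1 and 2.02 CPM in Cd31- wells of WT preparations 1 and 2 and at 2.76 and 0 CPM in those of the KO, below every Cd31+ sample. The 193 Aldh3a1 counts of WT preparation 1 came from 6 wells, and the 2 and 26 counts of the next 2 samples came from 1 well each. Adh1 was at 348, 101, 12.8 and 75.6 CPM and Cyp1b1 at 154, 52.6, 70.0 and 76.6 CPM in the Cd31- wells of the same samples, also below every Cd31+ sample. Aldh1a1 ran the other way in part, at 222, 22.3, 67.1 and 139 CPM, and overlapped the Cd31+ wells. Aldh2 was at 389, 332, 548 and 285 CPM, within 1.5-fold of the Cd31+ level of its own sample in each case. Several Cd31- levels of the second preparations rest on 1 well. In WT preparation 2, 72 of the 100 Adh1 counts came from the 1 Cd31- well that clustered with the ECs, and all 22 Aldh1a1 counts from 1 well. In KO preparation 2 the 70 Adh1 counts and the 129 Aldh1a1 counts came from 1 well each, as did 93.0% of the 71 Cyp1b1 counts.

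An edgeR quasi-likelihood fit over the 8 sums called 5 of the 7 enzymes higher in Cd31+ wells, where 9.79% of 12729 genes tested were called higher and 9.25% lower. The clusters that led to the choice of these enzymes held wells of both gates. Neither the count of 5 nor the adjusted p of an enzyme is therefore an independent result. The log2 fold change was 4.36 (standard error, SE, 0.74; adjusted p = 0.00447) for Aldh3a1, 2.65 (SE 0.59; adjusted p = 0.0152) for Adh1 and 2.23 (SE 0.42; adjusted p = 0.00674) for Cyp1b1, beside a median of 0.15 over all genes tested. Adjusted p was 0.000139 for Adh7 and 0.000676 for Cyp4b1, whose fitted fold changes depend on the prior count and are replaced by the bounds above. For Aldh1a1 the fit gave -1.13 (SE 0.60; adjusted p = 0.247) and for Aldh2 -0.28 (SE 0.28; adjusted p = 0.551). In summed wells, fewer cells of a type and less RNA per cell cannot be told apart. The value of Aldh3a1 was 6.04 without WT preparation 1 and 8.02 without KO preparation 1. The 8.02 depends on the prior count, since the Cd31- wells of KO preparation 2 had 0 counts of Aldh3a1. Adh1 was no longer called in wells with at least 100000 counts (adjusted p = 0.238), without KO preparation 1 (0.0758) or without WT preparation 2 (0.0657), and Cyp1b1 was no longer called in those deeper wells (0.195), without KO preparation 1 (0.0796) or without KO preparation 2 (0.0601). Aldh1a1 turned to 0.27 (adjusted p = 0.751) without WT preparation 1.

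**Figure D2:**
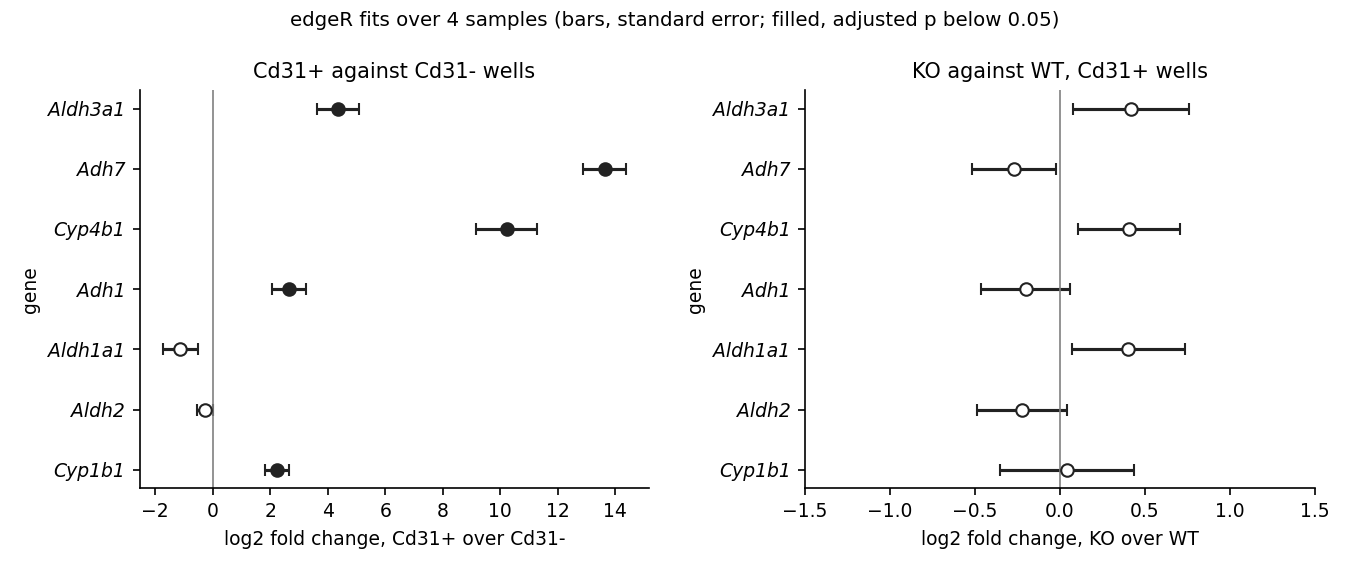
Fitted log2 fold changes of the 7 enzymes with standard errors, Cd31+ against Cd31- wells (left, 8 sums) and KO against WT in Cd31+ wells (right, 4 sums); filled points have an adjusted p below 0.05. The 5 called enzymes are filled on the left and none on the right, and the points of Adh7 and Cyp4b1 on the left depend on the prior count since most Cd31- samples have no count.

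Most Cd31- wells fell into 2 clusters, and the enzymes differed between them. No cluster was named for the 5 pericyte markers, which were at 1690 to 2188 CPM in the summed Cd31- wells. By markers, 70 wells fell into a smooth muscle-like cluster (led by Myh11 and Cnn1), 37 into a fibroblast-like cluster (led by Dpep1, C7 and Dpt) and 1 with the ECs. In the smooth muscle-like wells 0 of 11446756 counts belonged to Adh1, Adh7, Cyp4b1 or Aldh3a1, which allows up to 0.262 CPM of each, and Aldh1a1 had 2 counts in 1 well. In the fibroblast-like wells Adh1 was at 389 CPM with a count in 73.0% of wells (55.9 to 86.2), Aldh1a1 at 347 CPM in 86.5% (71.2 to 95.5) and Cyp1b1 at 223 CPM in 89.2% (74.6 to 97.0). Cyp1b1 was at 30.2 CPM in the smooth muscle-like wells, in 31.4% (20.9 to 43.6), and Aldh2 was found in 98.6% and 97.3% of the wells of both kinds. After thinning to 20000 counts, Adh1, Aldh1a1 and Cyp1b1 had counts in 64.9%, 78.4% and 81.1% of fibroblast-like wells and in 0%, 0% and 20% of smooth muscle-like wells, with median depths of 144368 and 112506 counts.

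The fibroblast-like wells, 34.3% of the Cd31- wells with 36.1% of their counts, carried 97.2% of the Adh1 counts, 99.9% of the Aldh1a1 counts, 99.1% of the Aldh3a1 counts and 80.2% of the Cyp1b1 counts of that gate, and 32.1% of the Aldh2 counts. They made up 61.9% of the Cd31- wells in WT preparation 1, 8.33% in WT preparation 2, 22.5% in KO preparation 1 and 7.14% in KO preparation 2. The Cd31- levels of Adh1, Aldh1a1 and Cyp1b1 given above were highest in WT preparation 1, which had most fibroblast-like wells, and the part of this share in the difference between the gates was not tested. Within the fibroblast-like wells Adh1 was at 555 CPM in WT preparation 1 (26 wells) and at 55.4 CPM in KO preparation 1 (9 wells), while Aldh1a1 was at 354 and 289 CPM and Cyp1b1 at 222 and 207 CPM. The other 2 samples had 1 fibroblast-like well each, with Adh1 at 613 CPM in WT preparation 2 and at 623 CPM in KO preparation 2. In these wells Aldh1a1 was at 481 and 1149 CPM and Cyp1b1 at 109 and 588 CPM. Names and clusters were rebuilt from the counts, the enzymes were among the genes clustered, and these values carry no test.

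**Figure D3:**
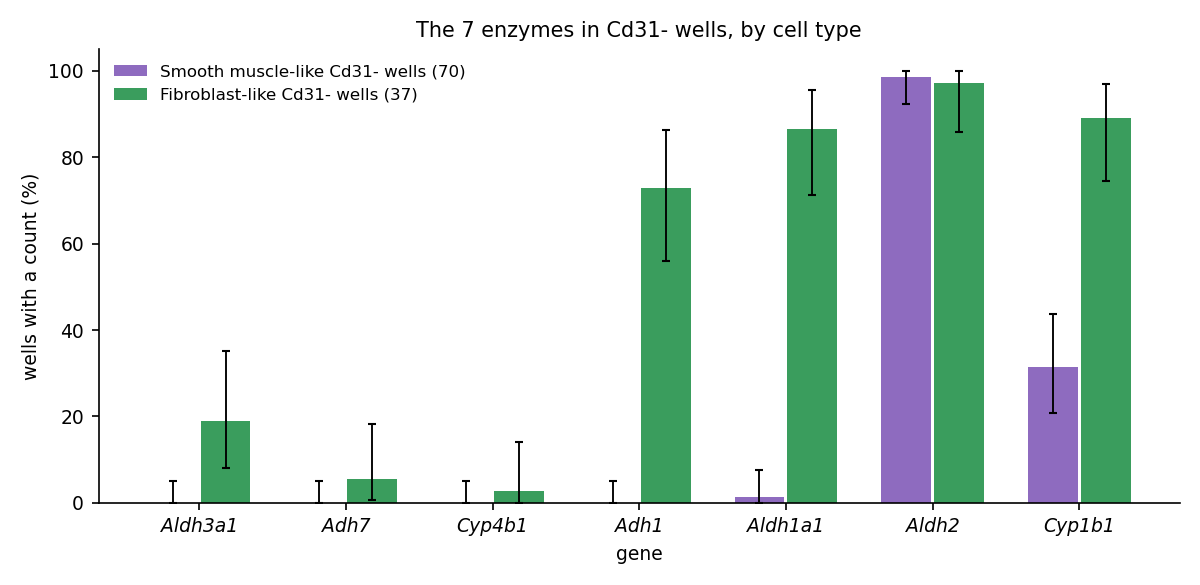
Share of Cd31- wells with a count of each enzyme, in smooth muscle-like wells (70, purple) and fibroblast-like wells (37, green), with 95% exact binomial intervals that cover counting error only. Adh1 and Aldh1a1 stand at 0% and 1.43% of smooth muscle-like wells and at 73.0% and 86.5% of fibroblast-like wells.

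Did loss of AmotL2 change the enzymes in ECs? No enzyme passed the test between KO and WT. The edgeR fit over the 4 sums of Cd31+ wells called 0 of 12702 genes (0%), with 468 at an unadjusted p under 0.05, and DESeq2 called 55 (0.419% of those it tested), none of them an enzyme. The fitted log2 fold change was 0.42 (SE 0.34) for Aldh3a1, 0.41 (SE 0.30) for Cyp4b1, 0.40 (SE 0.33) for Aldh1a1 and 0.04 (SE 0.39) for Cyp1b1, and -0.27 (SE 0.25) for Adh7, -0.23 (SE 0.26) for Aldh2 and -0.20 (SE 0.26) for Adh1, each with an adjusted p of 1.00. EYFP, at 113 and 85.5 CPM in the KO and at 2.38 and 0.353 CPM in the WT, was not called by edgeR either. With 2 preparations per genotype, the absence of a call therefore does not show that an enzyme was unchanged. The preparations moved in opposite directions for Aldh3a1, Cyp1b1 and Aldh2. Aldh3a1 was 2.32-fold higher in the KO in preparation 1 and 0.792-fold in preparation 2, Cyp1b1 was 1.68-fold and 0.756-fold and Aldh2 1.12-fold and 0.657-fold. Cyp4b1 was 1.00-fold and 1.64-fold, Aldh1a1 1.78-fold and 1.04-fold, Adh1 1.00-fold and 0.735-fold and Adh7, lower in both preparations, 0.902-fold and 0.756-fold. With preparation as a replicate block the fit called 1 gene, no enzyme, and none of the 12 alternatives called an enzyme between KO and WT.

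In the Cd31- wells, where Cre was not aimed, edgeR called 0 of 12729 genes (0%) between KO and WT, with 1130 at an unadjusted p under 0.05, and the lowest adjusted p of an enzyme was 0.489. The difference between the gates in the KO effect was tested as an interaction, which called 0 genes (0%), with 657 at an unadjusted p under 0.05. Adjusted p was 0.955 for Adh7, Cyp4b1 and Aldh3a1 and higher for the other 4 enzymes.

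The relation of Aldh3a1, Adh7 and Cyp4b1 to each other was described over the Cd31+ wells of each sample, as the Spearman correlation of log2(CPM + 1). Wells of a sample share a library preparation and differ in depth, and the correlations of these genes with depth ran from -0.06 to 0.25. Aldh3a1 and Adh7 correlated at a mean of -0.05 (-0.07 to -0.01 over 4 samples) and Aldh3a1 and Cyp4b1 at -0.10 (-0.21 to -0.05). Adh7 and Cyp4b1 correlated at 0.17 (0.04 to 0.29). These are weak values in sparse counts, and no relation is read from them. The 3 genes were not found in separate wells: 281 of the 298 wells with an Aldh3a1 count also had one of Adh7 (94.3%), as did 83.6% of the wells without Aldh3a1. A Cyp4b1 count was found in 155 of the 298 wells with Aldh3a1 (52.0%) and in 48.7% of the wells without. After thinning, the shares with Cyp4b1 were 41.9% and 45.2%. Cyp4b1 was also found in 51.4% of the wells with Adh7 and in 40.5% of those without, and in 46.2% and 31.7% after thinning.

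Over all 676 Cd31+ wells, 150 wells (22.2%) had a count of each of the 3 genes, 293 (43.3%) of 2, 198 (29.3%) of 1 and 35 (5.18%) of none. Of the 198, Adh7 was the single gene in 159, Cyp4b1 in 27 and Aldh3a1 in 12. Of the 68 wells in the top 10% of Aldh3a1 within their sample, 4 (5.88%) were also in the top 10% of Adh7. Cyp4b1 likewise shared 4 (5.88%) with Aldh3a1, while Adh7 and Cyp4b1 shared 11 (16.2%). Unrelated genes would share about 10% of such wells, and no separation is read from these small counts. In KO preparation 1 the median Adh7 level was 1491 CPM in wells with a Cyp4b1 count and 620 CPM in wells without, and in WT preparation 1 it was 1363 and 787 CPM. It was 1542 and 1489 CPM in WT preparation 2 and 884 and 953 CPM in KO preparation 2, so the second preparations did not show the gap.

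Of the 21 pairs of enzymes, 5 had a higher mean than Adh7 with Cyp4b1. Adh7 and its neighbour Adh1, whose promoters are printed above, correlated at 0.40 (0.35 to 0.46), the highest of all. In WT preparation 1, KO preparation 1 and KO preparation 2, median Adh1 was 587, 634 and 401 CPM in wells with Adh7. It was 35.5, 0 and 0 CPM in wells without Adh7, which numbered 35, 39 and 5. Those wells include most of the 33 wells led by Htr2b and Ackr1 described below, of which 1 had Adh7. The part of that cluster in the gap was not tested. All 50 wells of WT preparation 2 had Adh7. Adh5, in the same gene cluster, correlated with Adh7 at 0.0021. Aldh3a1 and Cyp1b1 correlated at 0.35 (0.28 to 0.44) and Aldh3a1 and Aldh1a1 at 0.26 (0.23 to 0.35). Adh1 and Cyp1b1 correlated at 0.25 (0.08 to 0.42) and Aldh1a1 and Cyp1b1 at 0.20 (0.12 to 0.32). In wells with a count of both genes, Aldh3a1 was at 0.19 (0.05 to 0.34) with Cyp1b1 and at 0.05 (-0.12 to 0.19) with Aldh1a1. Cyp1b1 was at 0.09 (-0.10 to 0.44) with Adh1 and at 0.07 (-0.04 to 0.16) with Aldh1a1 in such wells. Adh7 and Adh1 were at 0.31 (0.24 to 0.46) there. Median Cyp1b1 was 348, 598, 428 and 493 CPM in wells with an Aldh3a1 count of WT preparations 1 and 2 and KO preparations 1 and 2, and 62.2, 300.2, 125 and 166 CPM in wells without, higher with Aldh3a1 in each sample. Aldh3a2, 4995 bases from Aldh3a1, correlated with it at 0.04.

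**Figure D4:**
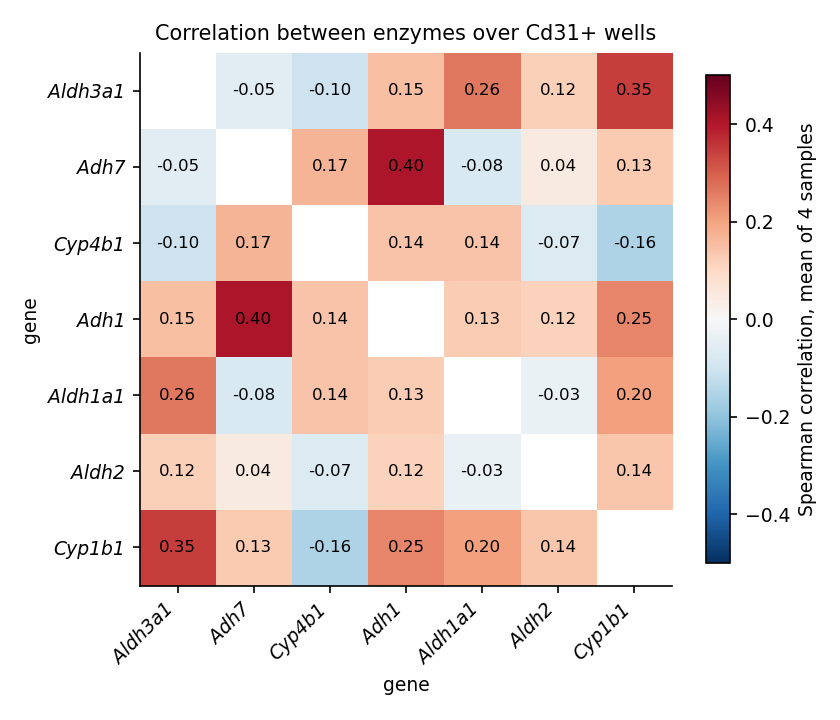
Spearman correlation of each pair of enzymes over the Cd31+ wells of a sample, as the mean of 4 samples, on a colour scale from -0.5 to 0.5. Adh7 with Adh1 (0.40) and Aldh3a1 with Cyp1b1 (0.35) stand out, and the pairs among Aldh3a1, Adh7 and Cyp4b1 are at -0.05, -0.10 and 0.17.

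Across all genes with a count in at least 20% of the Cd31+ wells of every sample (6330 besides the enzyme itself in most cases), the genes most like each enzyme formed different lists. Nearest to Adh7 were Gkn3 (mean correlation 0.48), Adra2a (0.44), which encodes an adrenergic receptor, Fam3c (0.41), Adh1 (0.40) and Mgst3 (0.39), a microsomal glutathione transferase. Nearest to Aldh3a1 were Calcrl (0.37), the receptor of calcitonin-related peptides, Ncam1 (0.36), Cav1 (0.35), the main protein of caveolae, Frzb (0.35), a secreted Wnt antagonist, and Cyp1b1 (0.35). Nearest to Cyp4b1 were Edn1 (0.41), which encodes endothelin-1, Bmp4 (0.38), Apoe (0.34) and Fmo1 (0.33), a flavin-containing monooxygenase. Calcrl, first for Aldh3a1, was among the 3 lowest for Adh7 at -0.23. For Adh7 the median over the genes was 0.01, with 98% of genes between -0.14 and 0.20.

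Among the genes nearest to Cyp1b1 were Pcolce2 (0.46), Sfrp1 (0.42), Spon1 (0.41) and Ramp2 (0.38), the partner of Calcrl in the adrenomedullin receptor. Aldh1a1 was nearest to Thbs1 (0.53), the gene of thrombospondin-1, Bmp4 (0.47), Fmo2 (0.45), Nrp1 (0.43) and Igfbp7 (0.43), and it ran against Cldn5 (-0.41), the endothelial tight junction claudin. Adh1 was nearest to Adh7 (0.40), Ephx2 (0.38), the soluble epoxide hydrolase, Apoe (0.34) and Sfrp1 (0.34). Aldh2 had no close match, with Spon1 (0.28) first. Aldh3a1 and Cyp1b1 both had Tcf4 as their lowest gene, at -0.40 and -0.47.

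By cluster, several of the enzymes divided the ECs, which is how the set was chosen. Among 5 endothelial clusters, Aldh3a1 was the leading gene of a cluster of 243 wells (with Ackr4, Frzb and Thbs1), at 315 CPM and in 71.6% of its wells. In the cluster of 209 wells led by Tbx1, Nt5e and Gkn3 it was at 42.8 CPM and in 34.4% of wells. Adh7 and Cyp4b1 were higher in the second of these (1765 against 944 CPM, and 359 against 101 CPM). Most wells of both clusters were KO wells: WT wells made up 18.5% of the first and 23.4% of the second. Over the 4 samples Aldh3a1 ran from 200 to 478 CPM in the first and from 33.3 to 48.5 CPM in the second. The MHC class II-high cluster (155 wells, 154 of them of WT preparation 1) held Adh7 at 1527, Cyp4b1 at 195 and Aldh3a1 at 77.1 CPM, between those 2 clusters for each gene. Cyp1b1 was at 325 CPM there, at 324 CPM in the cluster led by Tbx1 and at 569 CPM in that led by Aldh3a1. Its samples overlapped between the last 2, at 96.8 to 477 CPM and at 351 to 736 CPM. In the MHC class II-high cluster, cluster and sample cannot be told apart. Adh1 was level in the 3 large clusters, at 766 to 852 CPM, and so was Aldh2, at 333 to 379 CPM.

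The 2 small endothelial clusters differed most. The 33 wells led by Htr2b, Ackr1, Lrg1 and Nrp2 held Cyp4b1 at 421 CPM in 66.7% of wells (48.2 to 82.0), but 0 counts of Aldh3a1 and of Aldh1a1, Adh7 in 1 well and Cyp1b1 in 2 wells. The 21 wells led by Ssu2 and Hapln1 held Adh7 at 892 CPM in 76.2% (52.8 to 91.8) and Cyp4b1 in 3 wells, and again 0 counts of Aldh3a1 and Aldh1a1. In 33 and 21 wells a count of 0 allows up to 3 wells. A finer clustering set 59 wells apart, led by Gdf6, Thbs1 and Nrg1, in which Aldh1a1 reached 304 CPM with a count in 76.3% of wells (63.4 to 86.4), Aldh3a1 326 CPM and Cyp1b1 665 CPM. With the 7 enzymes left out of the clustered genes, 235 of the 243 wells of the Aldh3a1 cluster again fell together, and Aldh3a1 was at 306 CPM there.

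**Figure D5:**
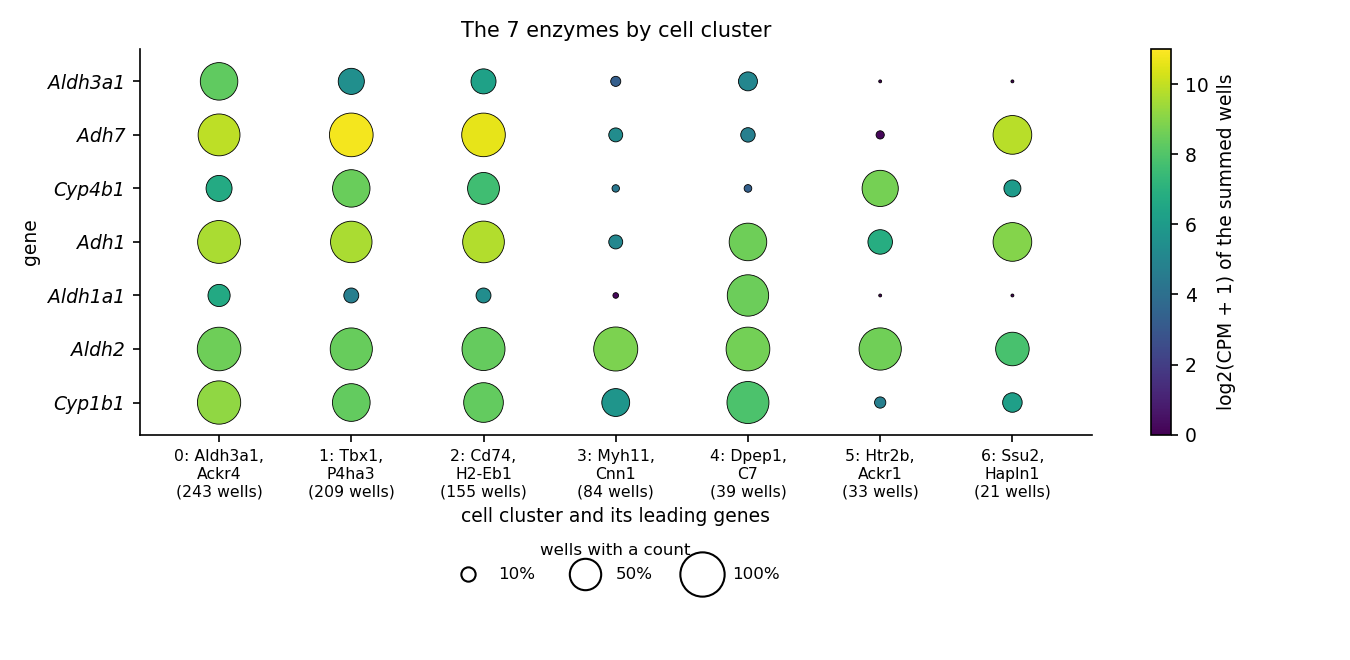
The 7 enzymes in 7 cell clusters named by their 2 leading genes; the area of a circle grows with the share of wells with a count and its colour gives log2(CPM + 1) of the summed wells. Clusters 0, 1, 2, 5 and 6 are endothelial, cluster 3 smooth muscle-like and cluster 4 fibroblast-like; Aldh3a1 is highest in cluster 0, Adh7 in cluster 1 and Cyp4b1 in cluster 5.

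Of the other members of the 3 families, 29 were tested between the gates, 2 were higher in Cd31+ wells and 2 lower (13.8% called, beside 19% of all genes tested). Of 100 P450 genes in the table, 15 besides Cyp1b1 and Cyp4b1 were tested. The 2 higher ones were Cyp2j9 (34.8 CPM in Cd31+ and 2.45 CPM in Cd31- wells, means of 4 samples, adjusted p = 0.0494) and Cyp3a13 (10.7 CPM against 0 counts, adjusted p = 0.0160). Cyp27a1, the sterol 27-hydroxylase, was lower (2.10 against 40.5 CPM, log2 fold change -4.43, SE 0.66, adjusted p = 0.00235). Of 21 aldehyde dehydrogenases 13 besides the chosen enzymes were tested, and Aldh7a1 was lower (29.8 against 79.8 CPM, log2 fold change -1.52, SE 0.31, adjusted p = 0.0110). Of the other alcohol dehydrogenases Adh5 alone was tested, and it was not called. The median log2 fold change of the 29 genes was 0.34, beside 0.15 over all genes.

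Of the receptor pathway that controls Cyp1b1 elsewhere, Ahr itself was higher in Cd31+ wells (8.92 against 0.301 CPM, with 8 counts in all Cd31- wells, adjusted p = 0.0154), and Arnt, Tiparp and Nqo1 were not called. Nqo1 and the other 9 tested genes of the Nrf2 antioxidant list gave 0 calls in either direction. Of 20 other enzymes of drug metabolism 7 were higher and 4 lower, where 9.79% and 9.25% of all genes were, with a median of 0.11. Ephx2 was at 475 CPM in Cd31+ and at 4.48 CPM in Cd31- wells (log2 fold change 6.80, SE 0.48, adjusted p = 0.000139) and Mgst3 at 276 and 41.4 CPM (2.67, SE 0.25, adjusted p = 0.000292). Fmo2, a flavin-containing monooxygenase, was lower (356 against 1201 CPM, -1.84, SE 0.27, adjusted p = 0.00229), as were Gstm1 (-1.15) and Gstm2 (-1.07), glutathione transferases so alike that reads may be split between them. Of 17 genes of retinoid handling 13 were tested, 0 were higher and 2 lower, beside the same shares of all genes: Rbp4 (5.43 against 345 CPM, -6.06, SE 1.16, adjusted p = 0.00785) and the retinal reductase Dhrs3 (163 against 325 CPM, -1.11, SE 0.25, adjusted p = 0.0154). Between KO and WT none of these lists held a call, and their medians ran from -0.20 to 0.32 beside 0.0025 over all genes.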

How the data were processed

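Smart-seq2, which has no molecular identifiers, was used on single sorted cells of mouse aorta. Per the labels and the study's methods, the authors aligned to GRCm38 (STAR 2.7.7a), with ERCC and EYFP sequences added, dropped duplicate reads (Picard 2.22.0) and counted with HTSeq 0.9.1; the annotation release is not given in the sources used here. The deposited counts are whole reads per gene and well and are not normalized. Lines that name no mouse gene entered neither totals nor tests. Of the gene symbols, 95.5% matched 1 gene ID of GENCODE M21, used for coordinates and exon lengths. Promoters came from RefSeq (GRCm38.p6).

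Wells needed 20000 gene counts and 500 genes, the cutoffs of the study. No doublet caller was run. Counts were summed per gate, genotype and preparation. The sums entered the quasi-likelihood test of edgeR 4.0.16 (two-sided, TMM factors, genes kept by filterByExpr, no block), adjusted by Benjamini-Hochberg over all genes tested, with a threshold of 0.05. Fits were tested on simulated data. Alternatives were DESeq2 1.42.0, limma 3.58.1 on log2(mean CPM + 1), RLE factors, no filter, deeper, thinned or Cdh5-chosen wells, a replicate block and leaving out each preparation. After removal of group means, WT and KO of a preparation correlated by 0.142 over 12702 genes, and the sort number of the labels is taken as a shared experiment for the block. P-values measure the spread between preparations, which may be technical. Clustering used Seurat 5.3.0 (2000 variable genes, 30 dimensions, resolution 0.5), with names from marker lists. Intervals are 95% exact binomial (Clopper-Pearson) or Poisson. They and the 3 counts set for a count of 0 cover counting error only.

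The 7 enzymes, gene lists and markers were chosen with earlier results of these data known. Other genes were named by rule: for each enzyme the 5 with the highest mean correlation over the samples, members of the families and lists that passed a test or were among the 5 highest per kb, and genome neighbours. Some genes that the rule names are not reported here. Genes with the lowest correlation, leading genes of clusters and Cyp2e1 were named after their values were seen.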

Additional observations from a re-analysis of the deposited data

Results flagged for a closer look

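Of 28 groups of 4 samples (7 enzymes, 2 gates, CPM and share of wells with a count), 6 held a sample far from the other 3 by Dixon's limit, and in all 6 it was WT preparation 1. The chance rate of about 1 in 20 groups does not hold for these: in 4 of the 6 the other samples are all at 0, so that any count sets a sample apart, and CPM and share rest on the same counts. Its Cd31- wells had 29.1 CPM of Aldh3a1 (0 to 2.76 in the other samples), 2.26 CPM of Adh7 (0), with a count in 4.76% of wells, and 9.34 CPM of Cyp4b1 (0), with a count in 2.38%. Its Cd31+ wells had 36.7 CPM of Aldh1a1 (60.8 to 65.2 in the others). In that sample 61.9% of Cd31- wells were fibroblast-like, and the part of this share in the Cd31- values was not tested.

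The 240 wells under the limits of depth and genes, which entered no comparison, still carried the enzymes. The 220 such Cd31+ wells held 1334065 counts, with Adh7 at 1432 CPM, Adh1 at 719 CPM, Cyp1b1 at 271 CPM, Cyp4b1 at 179 CPM and Aldh3a1 at 101 CPM, each above the upper counting limit in the 20 such Cd31- wells. Those 20 wells held 0 counts of Adh7, Cyp4b1 and Aldh3a1 in 157787 counts.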

How the results depend on the processing

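Between KO and WT, edgeR called 0 genes in Cd31+ wells and 0 in wells with at least 100000 counts, 1 with the replicate block, 1 with RLE factors, 1 in wells with a Cdh5 count, 3 with limma, 5 in thinned wells, 55 with DESeq2, 104 without the filter and 5 to 311 when 1 preparation was left out; none was one of the enzymes. Leaving out a preparation leaves 1 sample in an arm, which is assumed to vary like the other genotype, so the absence of a call there says little. The KO difference of Cyp4b1 ran from -0.0014 (without KO preparation 2) to 0.73 and that of Cyp1b1 from -0.48 (without WT preparation 1) to 0.85 over the fits that left out a preparation. Aldh3a1 ran from 0.061 to 0.89, Aldh1a1 from 0.059 to 0.84, Aldh2 from -0.41 to -0.018, Adh1 from -0.42 to -0.0048 and Adh7 from -0.38 to -0.16. In preparation 2 alone, with no test, Aldh3a1 was at -0.34, Cyp1b1 at -0.40, Cyp4b1 at 0.71, Aldh1a1 at 0.058 and Aldh2 at -0.61 (log2). The cause of these differences was not tested.

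Between the gates, 2423 genes were called, 1779 with the replicate block, which changed the call of no enzyme, and 1004 to 1885 when 1 preparation was left out. Adh7, Cyp4b1 and Aldh3a1 were called under all 12 alternatives, and Aldh2 under none. The log2 fold change of Adh1 was 2.42 and that of Cyp1b1 2.19 in wells with at least 100000 counts, neither called there. Leaving out a preparation gave 3.75 to 8.02 for Aldh3a1, 2.11 to 3.68 for Adh1, 1.59 to 2.97 for Cyp1b1 and -1.73 to 0.27 for Aldh1a1, which passed the threshold without WT preparation 2 (adjusted p = 0.0352) and, at -1.12, without the filter on low counts (adjusted p = 0.0200). The 8.02 of Aldh3a1, without KO preparation 1, depends on the prior count. Deeper wells are fewer (4 and 5 Cd31- wells in the second preparations), and otherwise the cause of these differences was not tested.

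The correlation of Aldh3a1 and Adh7 was 0.053 by Pearson, -0.0039 in wells with at least 100000 counts and -0.17 in wells with both genes. That of Aldh3a1 and Cyp4b1 was -0.23 in the deeper wells and -0.0032 in wells with both, and that of Adh7 and Cyp4b1 was 0.062 in the deeper wells. Leaving out a preparation kept them within -0.07 to -0.05, -0.12 to -0.07 and 0.13 to 0.21. Depth limits the rare counts: a median well held 46891 to 252839 counts, and thinning lowered the mean share of Cd31+ wells with Aldh3a1 from 53.5% to 43.9%.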

Other observations

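Some wells sorted as Cd31+ did not cluster with ECs. Of 14 that fell into the smooth muscle-like cluster, 8 had a count of Cdh5, 8 of Adh7, 8 of Adh1, 4 of Aldh3a1, 2 of Cyp4b1 and none of Aldh1a1, while 0 of the 70 Cd31- wells of that cluster had a count of Adh7 or Adh1. Whether such wells held more than 1 cell was not tested.

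Cyp2e1, the ethanol-inducible P450, had 4722 counts over the Cd31+ wells, of which 99.9% came from 1 well of WT preparation 1. That well held 464116 counts, none of Cdh5, and the most counts of the fat cell genes Adipoq, Plin1 and Cidec among Cd31+ wells.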
